A study of Mus musculus with 6 samples.

Results

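GABA-A receptors are chloride channels opened by the transmitter GABA, and each is a pentamer of related subunits encoded by separate genes. Described here are 7 of these genes, chosen by symbol: the alpha subunits Gabra2, Gabra3, Gabra4 and Gabra5, the gamma subunits Gabrg1 and Gabrg3, and the delta subunit Gabrd. All 7 were found among the 26264 gene symbols of the count tables, and 7 of 7 passed the filter on low counts. Other alpha and gamma genes of the family were not analysed here.

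The tissue was the basolateral amygdala, dissected from male mice. The groups were chronic restraint stress, called CRS (3 libraries), in which an animal is repeatedly held immobile, and not-stressed controls, called Ctrl (3 libraries). The sources used here do not give strain, age, the schedule of the restraint, or whether a library came from 1 animal or a pool. The labels describe the libraries as biological replicates, and RNA was depleted of ribosomal RNA before sequencing.

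In a typical receptor, alpha and beta subunits assemble with a gamma or a delta subunit, and the alpha subunit sets where the receptor sits and which drugs it binds. Receptors with alpha2 or alpha3 and a gamma subunit cluster at synapses and carry fast phasic inhibition. Receptors with alpha5, or with alpha4 and delta, lie largely outside synapses, where they respond to ambient GABA with a tonic current, and delta receptors are strongly modulated by neurosteroids. In the basolateral amygdala such receptors restrain the excitatory principal neurons that drive fear and anxiety.

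Each library held between 9859449 and 10233706 counts in genes, and the members held between 175 (Gabrd in CRS 1) and 2874 counts (Gabra2 in Ctrl 2) per library. Markers of the labelled tissue were present: the vesicular glutamate transporter gene Slc17a7 stood at 973 to 1184 CPM (counts scaled to 1000000 counts in genes) in CRS and at 719 to 1085 CPM in Ctrl. The library CRS 1 stood apart. The 16 striatal and central amygdala markers, which mark GABAergic neurons bordering the basolateral amygdala, summed to 300.3 CPM in CRS 1, 918 in CRS 2 and 1062 in CRS 3, against 1954, 958 and 1155 in Ctrl 1 to 3, and CRS 1 was lowest for 16 of 16. None of these 16 markers was at 0 in every library. The 10 glutamatergic neuron markers were mixed in CRS 1. It was the highest library for 6, Rspo2 and Neurod6 among them, and the lowest for 2, Lypd1 and Slc17a6. As group averages 9 of these markers were higher in CRS and 1 lower, 0 of them at an adjusted p under 0.05 (edgeR). Their mean log2 level relative to the Ctrl mean was 0.16 in CRS 1, -0.02 in CRS 2 and 0.02 in CRS 3, against -0.18, -0.02 and 0.21 in Ctrl 1 to 3. The results that rest on CRS 1 are therefore given with and without it. In tissue RNA, fewer cells of a type and less RNA per cell cannot be told apart.

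The genes lie mostly in clusters with other subunits in the order of protein-coding genes in the RefSeq annotation of GRCm38.p6. Gabrg1 and Gabra2 are next to each other, Gabra4 is next to the beta subunit gene Gabrb1, Gabrg3 and Gabra5 are next to each other, and Gabra3 is next to the theta subunit gene Gabrq. The RefSeq promoter table held 7 windows for 6 of the 7 genes, Gabra3 with a pair of overlapping ones. Gabrd was not among them. The 250 bases before the start are shown for Gabra5, whose level varied most among the alphas, and for Gabra2 and Gabrg1, neighbours whose upstream sequences differ widely in composition. Capitals mark CG dinucleotides. The Gabra5 window is chr7:57510060-57510309, that of Gabra2 is chr5:71095850-71096099 and that of Gabrg1 is chr5:70842618-70842867, all on the minus strand of GRCm38.p6 and written 5′ to 3′.
Gabra5: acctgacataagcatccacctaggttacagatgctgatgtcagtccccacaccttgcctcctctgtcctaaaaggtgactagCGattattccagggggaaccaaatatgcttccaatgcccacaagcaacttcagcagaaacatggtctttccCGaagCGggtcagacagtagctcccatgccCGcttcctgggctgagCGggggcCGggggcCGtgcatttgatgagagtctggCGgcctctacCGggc
Gabra2: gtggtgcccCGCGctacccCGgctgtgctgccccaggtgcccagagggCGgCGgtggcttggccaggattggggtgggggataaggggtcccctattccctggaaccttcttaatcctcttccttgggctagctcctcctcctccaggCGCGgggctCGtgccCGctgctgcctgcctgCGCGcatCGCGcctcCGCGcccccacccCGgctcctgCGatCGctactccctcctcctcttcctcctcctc
Gabrg1: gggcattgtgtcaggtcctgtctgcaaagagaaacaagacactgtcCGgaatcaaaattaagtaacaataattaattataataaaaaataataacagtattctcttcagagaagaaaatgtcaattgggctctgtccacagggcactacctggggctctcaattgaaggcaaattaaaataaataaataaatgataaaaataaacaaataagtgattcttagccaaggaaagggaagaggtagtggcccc

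The Gabra2 window held 18 CG dinucleotides and 70% G and C, and the Gabrg1 window held 1 CG and 35.6% G and C. The Gabra5 window, with 9 CG and 56.4%, stood between them, beside a median of 6 CG and 52.4% over the 32851 windows of the table. At least 18 CG occurred in 21.7% of all windows, and at least 1 in 92.1%. The letters GGGCGG, the GC box, which contains a CG, were found on either strand in Gabra2, Gabra4 and Gabrg3 and in 32.7% of all windows. The letters TGTTCT, the core of a glucocorticoid response element, were in none of the 7 windows on either strand and in 16.1% of all windows.

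Per kilobase of exon, using GENCODE M21 gene models, the alphas analysed here were on top and the gammas analysed here at the bottom. Gabra2 averaged 40.5 ± 2.05 CPM per kb in CRS and 42.0 ± 6.55 in Ctrl (SD, n = 3 each). Gabra4 followed at 35.96 ± 2.96 in CRS and 38.9 ± 2.05 in Ctrl, then Gabra3 at 33.6 ± 1.82 in CRS and 32.7 ± 2.12 in Ctrl. The ranges of Gabra2 and Gabra4 overlapped in both groups, so across libraries their order is not beyond the spread. Those of Gabra4 and Gabra3 overlapped in CRS and not in Ctrl. Within a library, Gabra4 was above Gabra3 in each, and Gabra2 above Gabra4 in each but Ctrl 3.

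Gabra5 was at 37.4 ± 17.5 CPM per kb in CRS, between Gabra2 and Gabra4, and at 26.6 ± 1.44 in Ctrl, below Gabra3. Below the alphas in both groups stood Gabrd at 16.7 ± 6.63 in CRS and 20.9 ± 1.60 in Ctrl. Gabrg1 was at 11.7 ± 2.698 in CRS and 14.8 ± 3.58 in Ctrl, and Gabrg3, the lowest, at 5.20 ± 0.291 in CRS and 6.26 ± 0.819 in Ctrl. In Ctrl each of Gabra3, Gabra5, Gabrd, Gabrg1 and Gabrg3 was above the next in this order in all 3 libraries, with ranges that did not overlap. In CRS 1 Gabra5 was the highest member, at 57.5 CPM per kb, and in CRS 2 and CRS 3 it was the lowest alpha. The authors' gene models are not given, and other exon lengths, above all for the long Gabrg3 model of 11123 bases, would shift these levels. The place of Gabrd above the gammas depends on these lengths. Before division by length Gabrd was lowest, at a mean of 32.1 CPM in CRS and 40.2 in Ctrl. Gabrg1 was then at 55.8 in CRS and 70.5 in Ctrl, and Gabrg3 at 57.8 in CRS and 69.7 in Ctrl.

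**Figure D1:**
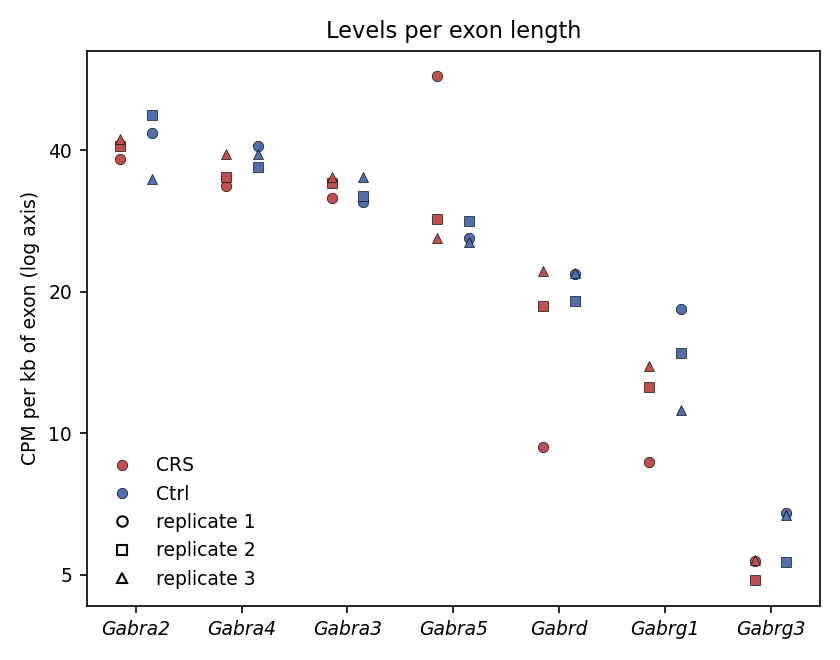
Level of each subunit gene in CPM per kilobase of exon (log axis), by library, CRS in red left of Ctrl in blue, with the symbol giving the replicate number. The 3 Ctrl libraries of Gabra5 sit between 25.6 and 28.3 CPM per kb and CRS 1 alone at 57.5.

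The comparison of CRS with Ctrl asked whether restraint changed these genes. Gabra5 averaged higher and Gabrd lower in CRS, and both differences were near 0 without the library CRS 1. Gabrg1 and Gabrg3 averaged lower in CRS, Gabrg3 with little spread among the CRS libraries. Gabra2, Gabra3 and Gabra4 differed by 0.11 or less on the log2 scale. By edgeR's quasi-likelihood test with Benjamini-Hochberg adjustment over 14739 tested genes, 0 of 7 members had an adjusted p under 0.05, beside 0% of all tested genes (0 genes). At an unadjusted p under 0.05 there was 1 of 7 members, beside 3.37% of tested genes (496). That count was 0 in 5 of 18 alternatives, 1 in 12 and 2 in 1, without CRS 3 (Gabra4 and Gabrg3). The share of all tested genes at that level was 3.99% without CRS 3. Over the alternatives it ran from 1.39% (without both number 1 libraries) to 6.43% (without CRS 2). DESeq2, limma-voom and edgeR's likelihood ratio test each called 0 members as well (2, 0 and 4 genes in all). The CRS and Ctrl libraries did not overlap for 0 of 7 members, beside 8.28% of tested genes. The median log2 fold change was -0.11 over the members and -0.0044 over tested genes, and the median absolute one was 0.27 over the members and 0.0878 over tested genes. Without CRS 1 the median was -0.03 over the members, and the median absolute value was 0.0672 over the members and 0.0829 over tested genes.

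**Figure D2:**
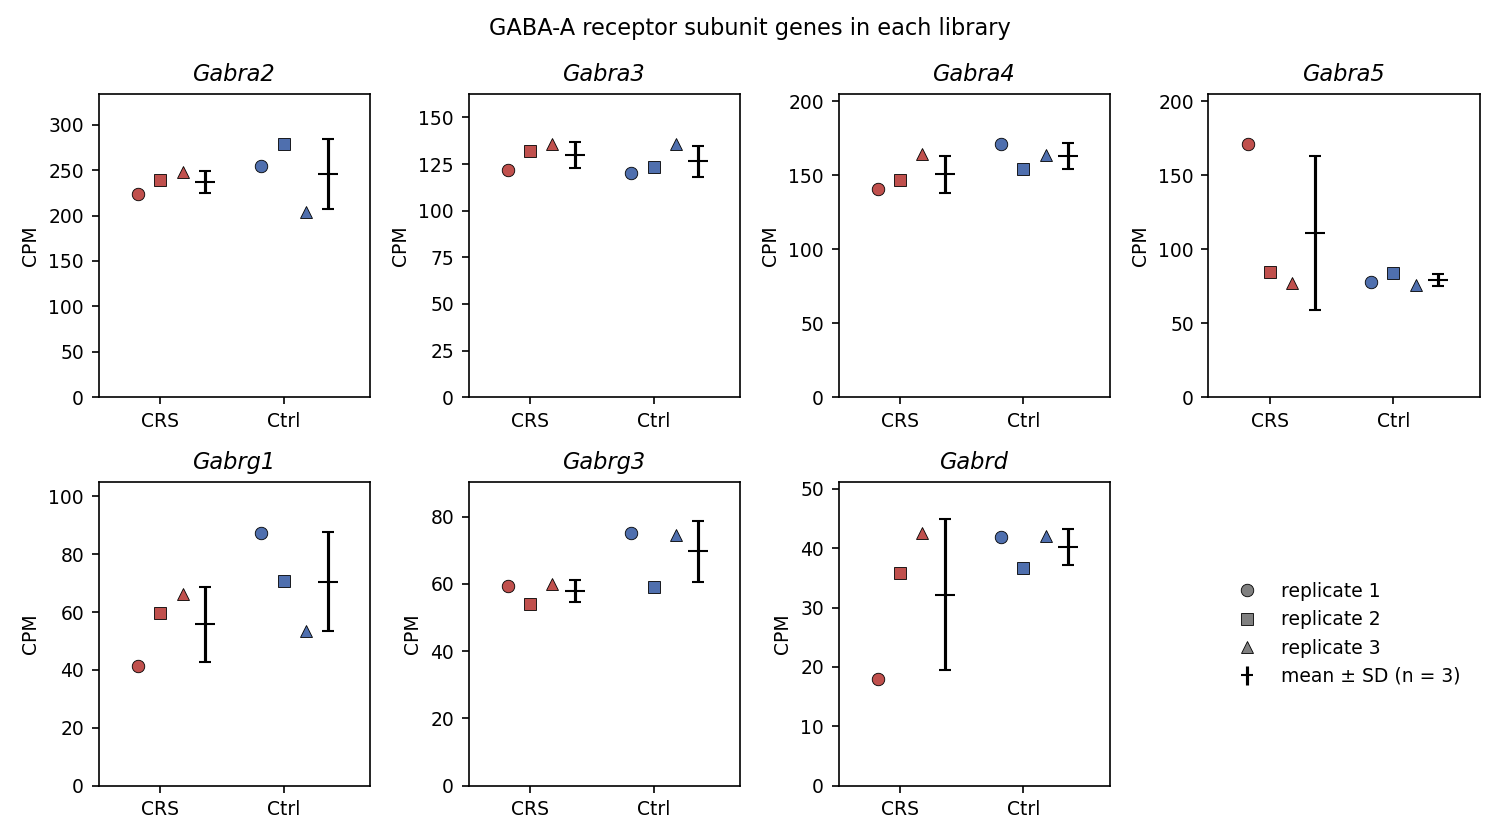
CPM of each subunit gene in each library, CRS left of Ctrl, with mean ± SD (n = 3) beside the points; axes start at 0. Gabra5 and Gabrd each have 1 CRS library far from the other 5, CRS 1, at 171 and 17.97 CPM.

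Among the alphas of synaptic type, Gabra2, the subunit through which benzodiazepines are known to reduce anxiety in mice, was at 224, 239 and 248 CPM in CRS 1 to 3, against 254, 279 and 204 CPM in Ctrl 1 to 3. The CRS libraries lay inside the Ctrl range. The log2 fold change, given ± SE here and for all genes that follow, was -0.05 ± 0.11, with a 95% interval from -0.31 to 0.21, and it was 0.06 without Ctrl 2 and -0.17 without Ctrl 3.

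Gabra3, also known from monoaminergic and cholinergic neurons, was the steadiest member. It was at 122, 132 and 136 CPM in CRS 1 to 3, against 120, 124 and 136 CPM in Ctrl 1 to 3, so the groups overlapped. Its log2 fold change was 0.04 ± 0.07, with an interval from -0.13 to 0.21.

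Gabra4, the main partner of delta in the forebrain and insensitive to classical benzodiazepines, was at 140 CPM in CRS 1, 147 in CRS 2 and 164 in CRS 3, against 171, 154 and 164 CPM in Ctrl 1 to 3. The lowest pair were CRS libraries and the third lay among Ctrl. The log2 fold change was -0.11 ± 0.08, with an interval from -0.29 to 0.06. It was -0.07 without CRS 1 and -0.18 without CRS 3. Without CRS 3 the interval, from -0.36 to -0.004, left out 0 (unadjusted p = 0.0463, adjusted p = 0.975, edgeR).

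Gabra5, whose receptors carry tonic inhibition in hippocampal pyramidal cells and are known for a role in memory, was at 171, 84.9 and 77.5 CPM in CRS 1 to 3, against 77.5, 84.1 and 76.0 CPM in Ctrl 1 to 3. CRS 1 lay 1.11 above the Ctrl mean on the log2 scale, while CRS 2 lay just above the highest Ctrl library and CRS 3 among Ctrl. The log2 fold change over all libraries was 0.49 ± 0.32, with an interval from -0.32 to 1.30 (adjusted p = 0.997, edgeR). Without CRS 1 it was 0.04 ± 0.08, with an interval from -0.15 to 0.22. Without CRS 2 it was 0.65 (interval -0.24 to 1.54) and without CRS 3 0.69 (-0.06 to 1.45). With the level of the striatal and central amygdala markers as a covariate it was -0.13 ± 0.15. That level was -2.60 in CRS 1 and between -0.49 and 0.59 in the other libraries, so the covariate mainly sets CRS 1 apart. The fit cannot tell the markers from any other trait of CRS 1.

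Gabrg3, a neighbour of Gabra5, showed no such departure in CRS 1, where it was at 59.4 CPM, close to CRS 3 and Ctrl 2. The highest and lowest libraries differed by 1.39-fold for Gabrg3, against 2.25-fold for Gabra5.

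As shares of the reads in the 4 alpha genes, Gabra5 took 26.0% in CRS 1 (95% exact binomial interval 24.9 to 27.1%, counting error only), 14.1% in CRS 2 and 12.4% in CRS 3, against 12.4, 13.1 and 13.1% in Ctrl 1 to 3. Gabra2 took 37.8 ± 3.22% in CRS and 39.8 ± 4.28% in Ctrl, Gabra3 20.7 ± 1.87% in CRS and 20.7 ± 2.39% in Ctrl, and Gabra4 24.0 ± 2.48% in CRS and 26.6 ± 2.25% in Ctrl (SD, n = 3 each). Per exon length the share of Gabra5 was 24.9 ± 9.49% in CRS and 19.0 ± 0.560% in Ctrl. Outside CRS 1 the share of Gabra5 in the alpha reads lay between 12.4 and 14.1%.

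**Figure D3:**
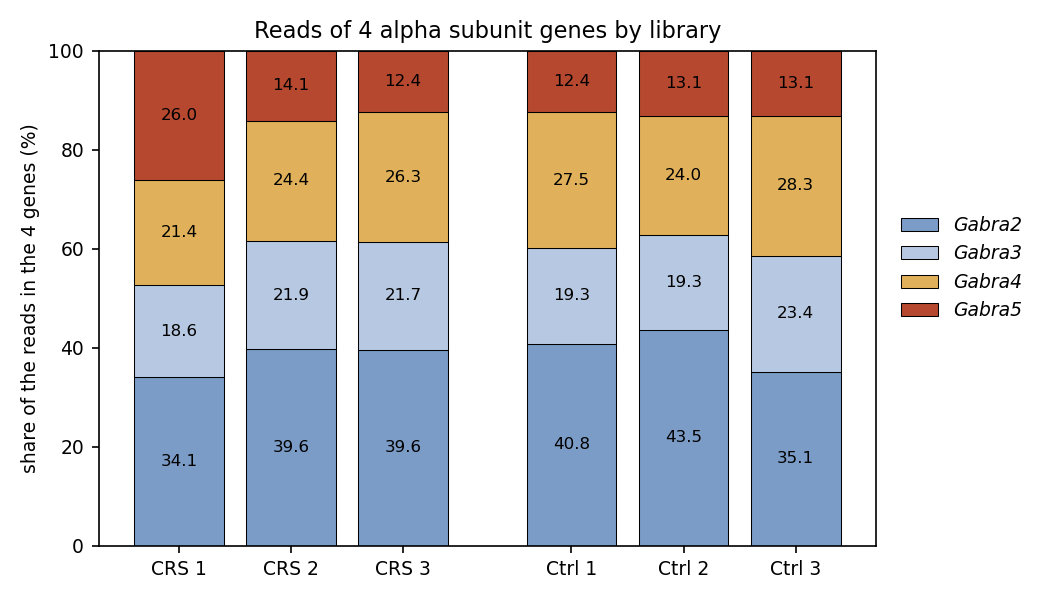
Share of the reads in Gabra2, Gabra3, Gabra4 and Gabra5 taken by each gene (percent, stacked), with 1 bar per library and CRS left of Ctrl. The Gabra5 share is 26.0% in CRS 1 and 12.4 to 14.1% in the other 5 libraries.

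Of the gamma subunits, Gabrg1, known from the rodent amygdala and from glia and giving receptors of reduced benzodiazepine affinity, was at 41.4, 59.8 and 66.2 CPM in CRS 1 to 3, against 87.5, 70.8 and 53.3 CPM in Ctrl 1 to 3. CRS 1 was the lowest library and Ctrl 1 the highest, and the groups overlapped through Ctrl 3. The log2 fold change was -0.34 ± 0.24, with an interval from -0.91 to 0.24. It was -0.16 without CRS 1, -0.15 without Ctrl 1 and 0.02 without both.

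CRS 1 was lowest and Ctrl 1 highest for Gabrg1, for the summed striatal and central amygdala markers and for the summed oligodendrocyte markers. The oligodendrocyte sum was 1762, 2528 and 1990 CPM in CRS 1 to 3, against 3562, 2466 and 2257 CPM in Ctrl 1 to 3. Between these ends the order of libraries for Gabrg1 was that of neither sum. Ctrl 3, next to lowest for Gabrg1, was next to highest for the striatal and central amygdala sum, at 1155 CPM. With the level of the striatal and central amygdala markers as a covariate the log2 fold change of Gabrg1 was 0.01 ± 0.18, with the limit given beside Gabra5. Of the 10 astrocyte markers 9 were lower in CRS and 1 higher, beside 51.6% of all tested genes lower. By edgeR 2 of them had an unadjusted p under 0.05 and 0 were called, and the median log2 fold change was -0.14. This was not particular to astrocytes: 10 of 10 oligodendrocyte markers (median -0.38) and 5 of 5 thalamic neuron markers (median -0.46) were lower, 0 called. The mean log2 level of the astrocyte markers was -0.04, -0.24 and -0.15 in CRS 1 to 3, against 0.02, -0.03 and 0.01 in Ctrl 1 to 3. The part of these marker lists in the result was not tested.

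Gabrg3, a sparsely expressed gamma subunit, was at 59.4, 54.1 and 59.9 CPM in CRS 1 to 3, against 75.2, 59.2 and 74.6 CPM in Ctrl 1 to 3. The CRS libraries were all below Ctrl 1 and Ctrl 3, and Ctrl 2 lay among them. The log2 fold change was -0.27 ± 0.10, with an interval from -0.51 to -0.03, an unadjusted p of 0.0313 and an adjusted p of 0.997 (edgeR). It ranked 277 of 14739 genes by p. Without CRS 1 the log2 fold change of Gabrg3 was -0.29. It ranged from -0.37 without Ctrl 2 to -0.21 without Ctrl 1, and the adjusted p was at least 0.793 in every alternative run. Its unadjusted p was 0.102 without CRS 2, 0.116 without Ctrl 1, 0.0998 without Ctrl 3, 0.118 without both number 1 libraries and 0.109 with the striatal and central amygdala covariate (edgeR), whose interval ran from -0.57 to 0.07. In the other alternatives the unadjusted p was under 0.05, lowest without Ctrl 2 (0.00263) and highest without CRS 3 (0.0492, both edgeR).

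Gabrd, the delta subunit, was at 17.97, 35.9 and 42.6 CPM in CRS 1 to 3, against 41.9, 36.7 and 42.0 CPM in Ctrl 1 to 3. CRS 1 lay 1.15 below the Ctrl mean on the log2 scale and CRS 3 was the highest of all libraries. The log2 fold change was -0.32 ± 0.30, with an interval from -1.07 to 0.43. Without CRS 1 it was -0.03 ± 0.11 (interval -0.29 to 0.22), and with the striatal and central amygdala level as a covariate 0.14 ± 0.15. Without CRS 2 it was -0.40 (interval -1.34 to 0.54) and without CRS 3 -0.58 (-1.31 to 0.15).

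**Figure D4:**
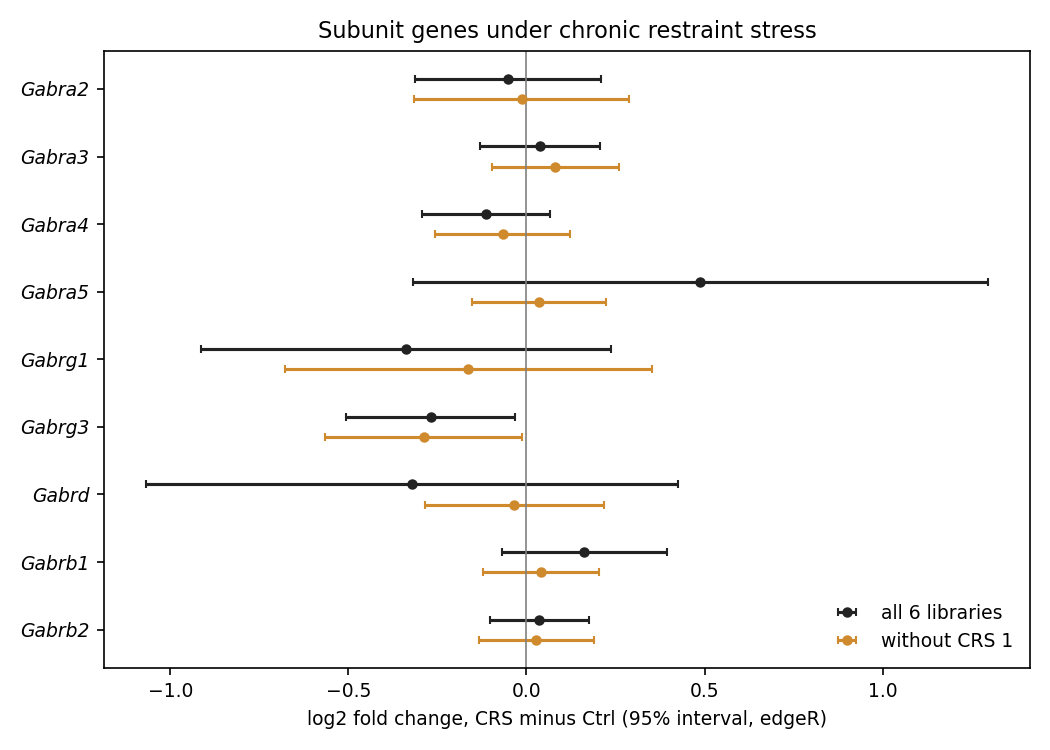
Log2 fold change of CRS over Ctrl with 95% intervals from edgeR for the 7 members, Gabrb1 and Gabrb2, with all 6 libraries (black, upper) and without CRS 1 (orange, lower). Without CRS 1 the estimate is 0.04 for Gabra5 and -0.03 for Gabrd, and that of Gabrg3 is -0.29.

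Gabra4 and Gabrd, which encode partners in delta receptors, kept a near-constant ratio of counts in 5 libraries and departed from it in CRS 1. Gabra4 had 7.82 counts per Gabrd count in CRS 1, 4.09 in CRS 2 and 3.86 in CRS 3, against 4.08, 4.201 and 3.91 in Ctrl 1 to 3. Gabra5 over Gabrd, both from receptors outside synapses, was 9.52 in CRS 1, 2.37 in CRS 2 and 1.82 in CRS 3, against 1.85, 2.29 and 1.81 in Ctrl 1 to 3. These ratios do not depend on scaling between libraries, and as scores over chosen members they were not tested.

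The synaptic type, Gabra2 and Gabra3 together, summed to 367 ± 19.0 CPM in CRS and 372 ± 31.5 CPM in Ctrl, and the extrasynaptic type, Gabra4, Gabra5 and Gabrd, to 294 ± 32.0 CPM in CRS and 282 ± 7.91 CPM in Ctrl (SD, n = 3 each). The log2 ratio of the first sum to the second was 0.07, 0.47 and 0.43 in CRS 1 to 3, against 0.37, 0.55 and 0.27 in Ctrl 1 to 3. CRS 1 was the lowest library and the others overlapped, and the difference of group means was -0.07 (0.06 without CRS 1). In CRS 1 the higher Gabra5 and the lower Gabrd were summed into the same type: with Gabra5 left out, the difference was 0.14.

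CRS 1 was the highest library for Gabra5 and the lowest for Gabra4, Gabrg1 and Gabrd, 4 of the 7 members. Beside these, the mean log2 level of the striatal and central amygdala markers relative to the Ctrl mean was -2.60 in CRS 1, -0.49 in CRS 2 and -0.46 in CRS 3, against 0.59, -0.43 and -0.17 in Ctrl 1 to 3. Examples are Penk, an opioid peptide precursor, at 29.6 CPM in CRS 1 and 198 to 382 CPM in the other libraries, and Ppp1r1b, the dopamine signalling protein DARPP-32, at 28.9 CPM in CRS 1 and 137 to 243 CPM in the others. Oligodendrocyte markers were at -0.61, -0.10 and -0.41 in CRS 1 to 3, against 0.41, -0.15 and -0.26 in Ctrl 1 to 3. The part of the oligodendrocyte markers in the members' values was not tested. The striatal and central amygdala level was entered as a covariate, with the values given beside Gabra5, Gabrg1 and Gabrd. Because that level mainly sets CRS 1 apart, these fits cannot tell the markers from any other trait of that library.

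The 10 GABAergic interneuron markers were mixed too, at a mean log2 level of -0.07, -0.20 and -0.07 in CRS 1 to 3, against 0.08, -0.12 and 0.04 in Ctrl 1 to 3. CRS 1 was the lowest library for 4 of them, Gad1, Gad2, Slc32a1 and Npy, and the highest for 3, Pvalb, Sst and Reln. Of 6 medial amygdala and hypothalamic markers listed, 3 were tested, Irs4, Greb1 and Esr1, while Sim1, Otp and Nr5a1 did not pass the filter. The mean level of the tested 3 was lower in all 3 CRS libraries, at -1.498, -1.23 and -1.03, against 0.29, -0.26 and -0.03 in Ctrl 1 to 3. Irs4 and Greb1 ranked 2 and 4 of 14739 genes by p in this same comparison (edgeR), so this level is no separate measure of those regions. Choroid plexus markers summed to 148 CPM in CRS 1, 9119 in CRS 2 and 160 in CRS 3, against 3791, 6736 and 234 CPM in Ctrl 1 to 3. With their level as a covariate the log2 fold change was 0.35 for Gabra5, -0.28 for Gabrd, -0.21 for Gabrg1 and -0.32 for Gabrg3. The part of the medial amygdala and hypothalamic markers in these results was not tested.

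**Figure D5:**
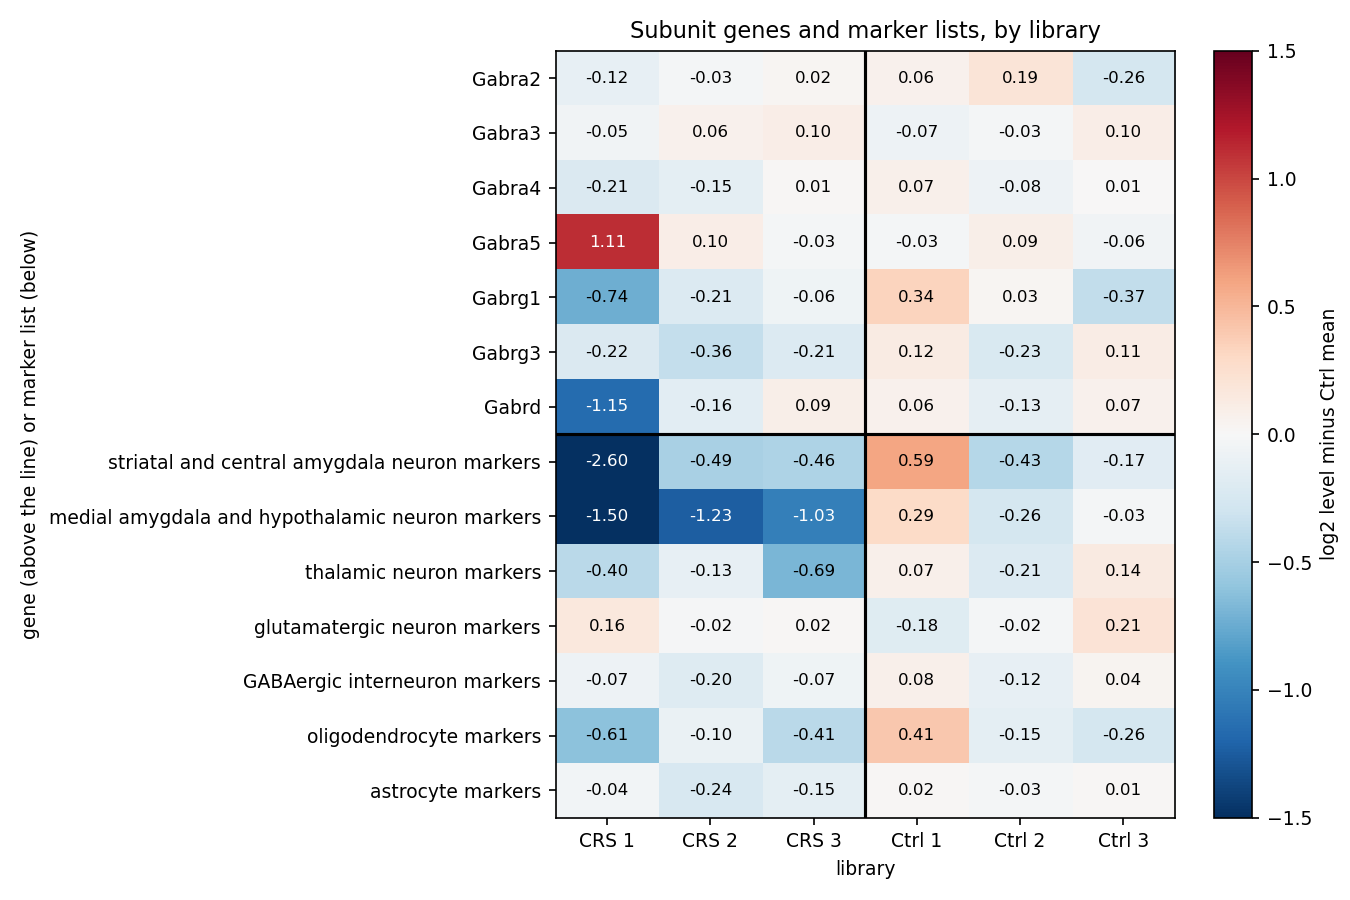
Log2 level minus the Ctrl mean for each subunit gene and for the mean of each of 7 marker lists, by library, CRS left of Ctrl; red is higher, blue lower, and colours stop at 1.5. Gabra5 (1.11) and Gabrd (-1.15) in CRS 1 are the largest member values, in the library where the striatal and central amygdala markers are at -2.60.

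The 2 genes whose log2 CPM followed each member most closely over the 6 libraries were taken from 11919 genes with a mean of at least 5 CPM. With 6 points and a candidate pool of this size the correlations describe these libraries only. For Gabra5 they were Grp, which encodes gastrin-releasing peptide (Pearson r = 0.998), and Gpr161 (r = 0.997). Grp was at 18.7, 9.27 and 7.95 CPM in CRS 1 to 3, against 8.35, 8.82 and 8.18 CPM in Ctrl 1 to 3, again high in CRS 1 alone. For Gabrd they were Epb41l2 (r = 0.995) and Sema5a (r = 0.994), and for Gabrg1 Mbnl1 and Klhl13 (r = 0.993 each). The pairs were Tceal6 and Mtrf1l for Gabra4, Hip1r and Scrt1 for Gabrg3, Uqcrh and Cops2 for Gabra2 and Fhl2 and Ube2d1 for Gabra3.

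Of the 9 other subunit genes listed, 4 passed the filter and 0 were called. Beta subunits form the GABA site together with alpha. Gabrb1 was at 475, 371 and 381 CPM in CRS 1 to 3, against 358, 384 and 355 CPM in Ctrl 1 to 3, with CRS 1 high and the rest together. Its log2 fold change was 0.16 ± 0.10, and 0.04 without CRS 1. Gabrb2 was at 528, 504.3 and 533 CPM in CRS 1 to 3, against 520 CPM in Ctrl 1, 494 in Ctrl 2 and 513 in Ctrl 3, so the groups overlapped. Its log2 fold change was 0.04 ± 0.06.

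Gabrq, the theta subunit and neighbour of Gabra3, was at 1.95, 6.85 and 6.06 CPM in CRS 1 to 3, against 12.2, 9.79 and 3.78 CPM in Ctrl 1 to 3, with CRS 1 lowest and Ctrl 1 highest. Its log2 fold change was -0.79 ± 0.56, and -0.42 without CRS 1. Gabre, Gabrp, Gabrr1, Gabrr2 and Gabrr3 had at most 7 counts in any library.

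Of 20 genes for receptor assembly, trafficking and anchoring, 11 were higher and 9 lower in CRS, 0 were called in either direction, and the median log2 fold change was 0.01. Those with the smallest p were Dmd, the dystrophin gene, at 0.19 ± 0.10, Rdx, whose product radixin anchors alpha5 receptors, at -0.15 ± 0.10, and Nsf, a vesicle fusion ATPase that binds GABA-A receptor subunits, at 0.13 ± 0.08. The chloride gradient list, with the transporters that set the driving force of the channel, had 5 of 8 higher and 3 lower, a median of 0.02 and 0 called. Its leading genes were the kinases Wnk1 (-0.11 ± 0.08), Oxsr1 (-0.12 ± 0.09) and Wnk2 (0.14 ± 0.17).

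Of 9 genes for neurosteroid synthesis and benzodiazepine-site ligands, 7 were tested, 2 were higher and 5 lower, the median was -0.02 and 0 were called. Akr1c14, a reductase that makes allopregnanolone in rodents, was at -0.30 ± 0.27, Star, which delivers cholesterol to mitochondria, at -0.29 ± 0.32, and Srd5a1, the 5-alpha-reductase of the same pathway, at 0.05 ± 0.19. For all 9 of the genes named from these lists the adjusted p was 0.997 (edgeR).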

How the data were processed

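For each library the authors deposited 1 table of raw read counts by gene symbol, neither normalized nor pooled. Build mm39 and the tools HTSeq 0.13.5, STAR 2.7.7a, edgeR 3.42.4 and FastQC 0.12.1 are listed, without roles, per the submitters' processing notes. Per the labels' protocols the kit was stranded and ribosomal RNA was depleted. Which annotation and which strand option the counting used is not given in the sources used here; reads from antisense partners may be included. Rows for reads outside annotated genes (53.0 to 57.4% of reads), not aligned uniquely (6.97 to 8.16%) or ambiguous between genes were kept out. Reads counted in genes were 35.5 to 38.6%. CRS 1 stood at the end of each of these ranges. It had 57.4% outside annotated genes (53.0 to 55.4% in the others) and 6.97% not aligned uniquely (7.29 to 8.16%). In genes it had 35.5% (36.9 to 38.6% in the others). The part of these shares in the results was not tested.

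The deposited counts were fitted with edgeR 4.0.16 under R 4.3.3 (TMM factors 0.983 to 1.02, quasi-likelihood F test with robust estimation, CRS minus Ctrl), after filterByExpr with a minimum count of 10 and total of 15, which kept 14739 of 26264 genes, and p-values were adjusted over all of them. Each SE was derived from the F statistic. CPM uses TMM-scaled library sizes. Marker list levels average log2 CPM (prior count 2) over the genes of the list that passed the filter. Exon lengths are unions over coding transcripts of GENCODE M21 (GRCm38), another build than the authors', and no coordinates were carried over. No 2 libraries agreed within sampling noise (chi-square per gene at least 2.95). P-values measure the spread between these libraries.

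Members, lists and tests were chosen with earlier results of these data known. Named genes are the members, the tested subunits of the other-subunit list (1 is not reported here), the 3 smallest p of each further role list, and the 2 most similar genes per member. Alternatives covered scaling, filtering, tests (DESeq2 1.42.0, limma 3.58.1), the replicate number as a block, marker covariates and left-out libraries. The test was checked on simulated data, where it called 49.3% of genes changed 1.5-fold and 74% of those changed 2-fold. The simulated data held many changed genes at once, which eases the adjusted threshold, while 0 genes were called here. Each simulated gene also took its spread from the trend over all genes. No simulated library was set apart as CRS 1 was, so these shares may not hold here.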

Additional observations from a re-analysis of the deposited data

How the results depend on the processing

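With 3 libraries a group, the 95% interval of the log2 fold change ran from -0.32 to 1.30 for Gabra5 and from -1.07 to 0.43 for Gabrd. Both included 0, and differences within them were not excluded. Without CRS 1 the intervals were narrower, -0.15 to 0.22 for Gabra5 and -0.29 to 0.22 for Gabrd. That of Gabra3 over all libraries was -0.13 to 0.21. In each of 18 alternatives 0 members were called, including every fit that left out 1 library (0 to 0 members). The count of called genes was 2 with DESeq2 and 4 with edgeR's likelihood ratio test, and 0 to 1 over the fits without 1 library (1 without Ctrl 3), with 0 members among them. Gabra3, Gabra4 and Gabrg3 kept their sign in all 18 alternatives. Gabra2 changed sign in 3 (choroid plexus covariate, 0.02; without both number 1 libraries, 0.01; without Ctrl 2, 0.06), Gabrg1 in 2 (striatal covariate, 0.01; without both number 1 libraries, 0.02), and Gabra5 (-0.13) and Gabrd (0.14) in 1, the striatal covariate. That covariate mainly sets CRS 1 apart from the other libraries. The synaptic over extrasynaptic difference of -0.07 was -0.14 to 0.06 without 1 library, 0.14 with Gabra5 left out of the extrasynaptic type, 0.04 as a mean of log2 CPM and -0.07 per exon length. The causes were not tested beyond these fits. With the replicate number as a block 0 genes and 0 members were called and the ratio difference was -0.07. Same-numbered libraries correlated at -0.32, 0.53 and 0.28 in their deviations from the group means. CRS 1 correlated best with Ctrl 3 (0.48), while CRS 2 and CRS 3 each correlated best with the Ctrl library of the same number. These correlations cannot settle a pairing, and the sources used here state none, so the numbers were not taken to pair the libraries.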
